A study of Homo sapiens with 6 samples.

Results

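The ELR CXC chemokines are small secreted proteins that draw neutrophils into tissue. They carry the residues glutamate, leucine and arginine (ELR) just before the first CXC cysteine pair. On neutrophils they bind the G protein-coupled receptors CXCR1 and CXCR2. CXCL8 (interleukin-8) and CXCL6 bind both receptors well, whereas CXCL1, CXCL2, CXCL3 and CXCL5 act mainly through CXCR2. Most of these ligand genes lie side by side on chromosome 4, and several tumor types, triple-negative breast cancer (TNBC) among them, are known to secrete them. The genes described here were chosen by name from the count table. They are 8 of its 58735 genes, 6 ligands (CXCL1, CXCL2, CXCL3, CXCL5, CXCL6 and CXCL8) and 2 receptors (CXCR1 and CXCR2).

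RNA had been sequenced from parent MDA-MB-231 cells, a TNBC line with the labelled genotype WT, and from cells of the same line made resistant to Adriamycin (ADR, the anthracycline doxorubicin), called ADRr here. Each group had 3 libraries, and the labels give neither a drug dose at harvest nor a treatment that both groups shared. According to the methods, the resistant cells were selected in rising ADR concentrations and then cloned by limiting dilution, so the group may stand for 1 clone. The series record speaks of 3 time points, which no sample label carries, and nothing says whether the libraries of a group came from separate cultures. The p-values therefore measure the spread between these libraries, which may be technical.

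Library totals ran from 15983985 to 18272314 counts, so that a count of 0 allowed up to 3 counts, or 0.163 to 0.189 CPM (the count scaled to the TMM-adjusted library size), for counting error only. Markers of the line were present, with VIM, the intermediate filament of mesenchymal cells, at 345 to 527 CPM over both groups. PGR, the progesterone receptor gene, had 0 counts in every library. Of 11 genes listed as markers of the line, 9 were tested, and 3 were called higher and 6 lower, beside 29.2% and 29.6% of all tested genes. The list mixes genes expected to be present with ESR1, PGR and ERBB2, which were listed as low in this line. VIM was among the 6 called lower. So were the keratin genes KRT8 and KRT19, which fell from means of 617 and 141 CPM in parent to 154 and 56.3 CPM in ADRr cells. The 3 called higher were EGFR (496 to 1304 CPM), CD44 (854 to 1482 CPM) and EPCAM (12.5 to 26.9 CPM). Of 20 leukocyte markers, 17 stayed under 1 CPM in every library and 7 had no count at all. The neutrophil genes CSF3R, MPO, ELANE and CEACAM8 were among those 7, and PTPRC, which encodes the common leukocyte antigen CD45, had at most 2 counts in a library. Other markers of the list were detected: FPR1, the formyl peptide receptor gene of neutrophils, fell from 6.47 ± 0.986 to 1.12 ± 0.128 CPM (log2 fold change -2.53, edgeR adjusted p = 2.1e-09), and CSF1R, a macrophage receptor gene, fell from 4.04 ± 0.677 to 1.61 ± 0.430 CPM (log2 fold change -1.31, edgeR adjusted p = 1.1e-04). The summed level of the 20 markers was 14.6 to 20.0 CPM in parent and 8.54 to 9.15 CPM in ADRr libraries. The 12 endothelial and fibroblast markers summed to 165 to 170 CPM in parent and 37.8 to 40.8 CPM in ADRr libraries, mainly through COL1A2 and PDGFRB. Of these 12, 6 were tested, and 1 was called higher and 4 lower, beside 29.2% and 29.6% of all tested genes. KDR, an endothelial marker, rose from 3.82 ± 1.03 to 8.07 ± 0.864 CPM (log2 fold change 1.07, edgeR adjusted p = 2.9e-05). DCN, a defining fibroblast gene, had 0 counts in every library. The part of these marker differences in the results below was not tested. In bulk RNA, fewer cells that express a gene and less RNA per cell cannot be told apart.

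The stretch just before the RefSeq start of each ligand gene is shown first, because all 6 promoters hold the same 9 letters. The gene spans of the count table, given with each gene below, begin farther upstream than the RefSeq start in all but CXCL1, so that for the other 5 ligands the stretch lies partly or, in CXCL6, wholly inside the span. The promoter table of RefSeq (build GRCh38.p14) matched all 8 genes. In the 250 bases before each start, 5 motifs were searched on both strands: GGAATTTCC and the looser GGNNNTTCC for NF-κB (which overlap wherever the first occurs), TGANTCA for AP-1, TTGCNNAAT for C/EBP, and TATAAA. GGAATTTCC was found in 6 of 6 ligand promoters and in neither receptor promoter, while 0.413% of 35116 promoters of the same length held it. In the 140 bases printed 5′ to 3′ for each ligand, capitals mark GGAATTTCC and, in CXCL8, TGACTCA.
CXCL8, chr4:73740429-73740568, plus strand: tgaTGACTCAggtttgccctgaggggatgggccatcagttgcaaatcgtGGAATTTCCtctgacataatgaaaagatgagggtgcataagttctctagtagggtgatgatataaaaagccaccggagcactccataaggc
CXCL1, chr4:73869253-73869392, plus strand: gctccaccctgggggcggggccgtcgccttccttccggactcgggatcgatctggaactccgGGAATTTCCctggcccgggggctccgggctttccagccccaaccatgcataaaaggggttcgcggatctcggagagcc
CXCL2, chr4:74099196-74099335, minus strand: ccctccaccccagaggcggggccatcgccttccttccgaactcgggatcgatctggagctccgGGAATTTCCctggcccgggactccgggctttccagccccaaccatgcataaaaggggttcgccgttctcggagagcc
CXCL3, chr4:74038690-74038829, minus strand: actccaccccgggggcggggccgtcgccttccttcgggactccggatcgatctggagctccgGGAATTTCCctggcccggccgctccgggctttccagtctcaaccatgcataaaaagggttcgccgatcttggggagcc
CXCL5, chr4:73998678-73998817, minus strand: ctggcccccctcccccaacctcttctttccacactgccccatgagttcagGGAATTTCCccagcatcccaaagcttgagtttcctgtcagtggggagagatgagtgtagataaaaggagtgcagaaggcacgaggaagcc
CXCL6, chr4:73836538-73836677, plus strand: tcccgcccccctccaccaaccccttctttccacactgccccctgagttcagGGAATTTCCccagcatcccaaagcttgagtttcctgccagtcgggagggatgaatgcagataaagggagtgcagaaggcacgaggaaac

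Counted back from the RefSeq start, the 9 letters began at -91 in CXCL8, at -78 in CXCL1 and CXCL3, at -77 in CXCL2, at -90 in CXCL5 and at -89 in CXCL6. CXCL1, CXCL2 and CXCL3 held a second match to GGNNNTTCC (GGGCTTTCC, -53 to -45), a pattern that 17.1% of all promoters held at least once. TGANTCA was found in CXCL8 alone among the 8 genes (6.57% of all promoters), as was TATAAA (10.7%), and TTGCNNAAT in none of them (2.39%). The search took exact matches only, so a site that departs from a pattern would be missed. In CXCL8 the printed stretch holds ttgcaaat, which is a letter shorter than TTGCNNAAT. The letters found do not show whether a factor binds. In the printed stretch, CXCL1 shared 91.5% of aligned positions with CXCL2 and 90.7% with CXCL3, and CXCL5 shared 90.1% with CXCL6, whereas CXCL8 shared 44.8 to 48.0% with the other ligands. CXCL5 and CXCL6, whose promoters hold the same 9 letters as the others, were at or close to 0 in these cells, as described below.

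Differential expression was tested with edgeR's quasi-likelihood test over 15242 genes, and a gene was called where its fold change reached 1.2 and its Benjamini-Hochberg adjusted p did not exceed 0.05. Of the 8 genes, 4 passed the filter on low counts, all of them ligands. In ADRr cells CXCL8, CXCL2 and CXCL3 were called higher and CXCL1 was called lower. Over all tested genes, 29.2% were called higher, 29.6% lower and 58.8% in either direction, so being called is common in this comparison and the counts of 3 and 1 are read as descriptions of these genes only. The ADRr and parent libraries did not overlap for any of these 4 genes, which over all tested genes held for 34.5% in the upward and 34.7% in the downward direction.

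CXCL8, a ligand of both receptors (ENSG00000169429, GRCh38, chromosome 4, 73740506 to 73743716, plus strand), was at 410, 443 and 387 CPM in parent replicates 1 to 3 and at 603, 584 and 596 CPM in ADRr replicates 1 to 3. Every ADRr library thus stood above every parent library. The means were 413 ± 27.7 and 594 ± 9.78 CPM (SD, n = 3 libraries each), a 1.44-fold increase. Its log2 fold change was 0.52 (standard error, SE, 0.051, 95% confidence interval 0.42 to 0.63, edgeR adjusted p = 5.2e-09).

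CXCL1, first described as a melanoma growth-stimulating factor (ENSG00000163739, chromosome 4, 73869393 to 73871242, plus strand), moved the other way. It had 299, 302 and 297 CPM in parent replicates 1 to 3 and 203, 191 and 204 CPM in ADRr replicates 1 to 3. All 3 ADRr libraries were below all 3 parent libraries, with means of 299 ± 2.75 and 199.6 ± 7.12 CPM (SD, n = 3 each). This was a log2 fold change of -0.58 (SE 0.049, 95% confidence interval -0.69 to -0.48, edgeR adjusted p = 5.4e-10), so that the ADRr level was 0.667 times the parent level.

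CXCL2, the closest relative of CXCL1 among these genes in the printed promoter stretch (ENSG00000081041, chromosome 4, 74097035 to 74099293, minus strand), had the largest change among the 4 tested ligands. Its level was 40.2, 45.1 and 41.7 CPM in parent replicates 1 to 3 and 128, 124 and 114 CPM in ADRr replicates 1 to 3. The lowest ADRr library was far above the highest parent library. Means were 42.3 ± 2.51 and 122 ± 7.12 CPM (SD, n = 3 each), a 2.88-fold increase and a log2 fold change of 1.53 (SE 0.067, 95% confidence interval 1.39 to 1.66, edgeR adjusted p = 4.9e-15). Of all tested genes, 4.61% had a larger log2 fold change than CXCL2.

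CXCL3 (ENSG00000163734, chromosome 4, 74036589 to 74038807, minus strand) encodes another CXCR2 ligand and was the least abundant of the tested ligands. It had 8.22, 12.1 and 10.7 CPM in parent replicates 1 to 3 and 16.98, 16.0 and 18.1 CPM in ADRr replicates 1 to 3. The groups did not overlap, although the parent libraries were spread more widely, relative to their mean, than for the other tested ligands. The log2 fold change was 0.72 (SE 0.13, 95% confidence interval 0.46 to 0.99, edgeR adjusted p = 2.6e-05), a 1.65-fold increase from 10.3 ± 1.97 to 17.1 ± 1.04 CPM (SD, n = 3 each).

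**Figure D1:**
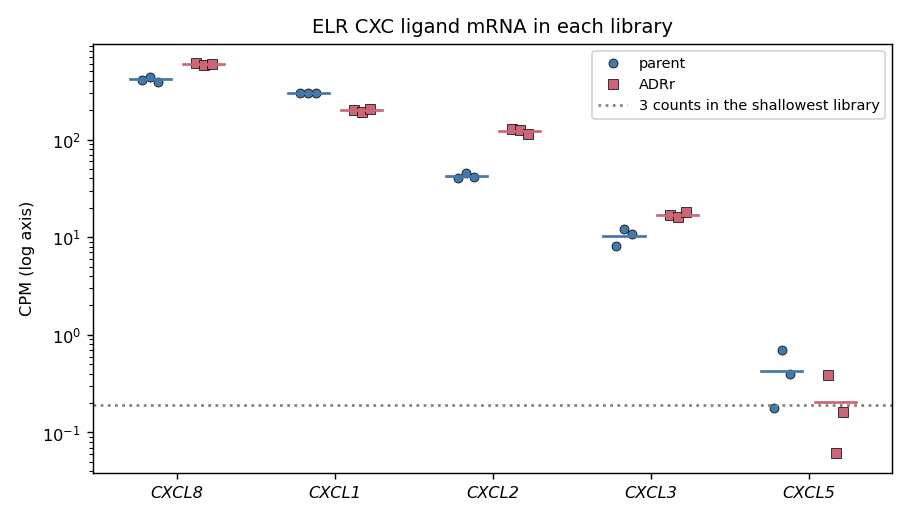
Level of the 5 ligand genes with any count, in CPM on a log axis, for parent (circles) and ADRr (squares) libraries, with a line at each group mean of 3 libraries and a dotted line at the value of 3 counts in the shallowest library. The groups do not overlap for CXCL8, CXCL2 and CXCL3, which are higher in ADRr, or for CXCL1, which is lower, and they overlap for CXCL5 near the floor.

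CXCL5, a CXCR2 ligand of epithelial cells (ENSG00000163735, chromosome 4, 73995642 to 73998779, minus strand), was close to the floor, with counts of 3, 11 and 7 for parent replicates 1 to 3 and of 7, 1 and 3 for ADRr replicates 1 to 3. It did not pass the filter, and the groups overlapped. Without the filter its log2 fold change was -1.002 (SE 0.77, edgeR adjusted p = 0.35), so a difference was not detectable at this depth. CXCL6 (ENSG00000124875, chromosome 4, 73836497 to 73849064, plus strand) had 0 counts in all 6 libraries, and so had PPBPP1, the pseudogene that overlaps it.

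The receptor genes CXCR1 (ENSG00000163464, chromosome 2, 218162845 to 218166995) and CXCR2 (ENSG00000180871, chromosome 2, 218125289 to 218137253) also had 0 counts in every library. Neither parent nor ADRr cells therefore had detectable mRNA of a signalling receptor for these ligands, within the limit of 0.163 to 0.189 CPM that a count of 0 allows. Among 8 other CXC and atypical receptor genes, 3 were tested, 2 were called lower and 0 higher, beside 29.6% and 29.2% of all tested genes. ACKR3, the scavenger of CXCL11 and CXCL12, was at 15.1 ± 1.83 CPM in parent and 4.21 ± 0.825 CPM in ADRr cells (log2 fold change -1.84, SE 0.15, edgeR adjusted p = 3.3e-10). CXCR4, the CXCL12 receptor, was counted 22, 23 and 23 times in parent replicates 1 to 3 and 1, 0 and 2 times in ADRr replicates 1 to 3. The ratio of these levels, parent over ADRr, was 23.9 (exact binomial 95% interval 7.83 to 119, counting error only). With at least 10 counts required in every library, CXCR4 was not tested and 1 of these receptor genes was called lower. ACKR1, the atypical receptor that takes up ELR ligands, had at most 2 counts in a library.

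Levels of different genes were compared per length, in FPKM, the count divided by gene length and library size. In parent cells CXCL1 was the most abundant of the ligands at 227 ± 2.22 FPKM, ahead of CXCL8 at 178 ± 12.1 FPKM (SD, n = 3 each). In ADRr cells the order was reversed, with CXCL8 at 257 ± 4.78 FPKM and CXCL1 at 151 ± 5.81 FPKM. The order of CXCL1 and CXCL8 in parent cells depends on the lengths used. In CPM, CXCL8 was ahead of CXCL1 in both groups, at 413 against 299 in parent and 594 against 199.6 in ADRr cells. CXCL2 came after both, at 27.7 ± 1.60 FPKM in parent and 79.9 ± 4.53 FPKM in ADRr cells, and CXCL3 was at 4.57 ± 0.860 and 7.56 ± 0.484 FPKM. None of these neighbours in the order overlapped in either group. Ranked among all 58735 genes by mean FPKM, CXCL8 stood at place 141 in parent and 87 in ADRr cells, CXCL1 at 105 and 178, CXCL2 at 1691 and 434, and CXCL3 at 7649 and 5734.

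The ratio of 2 genes within a library does not depend on how libraries are scaled. The count ratio of CXCL8 to CXCL1 was 1.37, 1.46 and 1.30 in parent replicates 1 to 3 and 2.97, 3.05 and 2.92 in ADRr replicates 1 to 3. The ratio of CXCL2 to CXCL1 was 0.135, 0.149 and 0.140 in parent and 0.629, 0.648 and 0.557 in ADRr libraries, a 4.33-fold difference between the means. For CXCL3 to CXCL1 the mean ratio was 0.0345 ± 0.00637 in parent and 0.0854 ± 0.00287 in ADRr libraries. All 3 ratios were higher in every ADRr library than in any parent library. For such a ratio, groups of 3 libraries leave an exact two-sided permutation test no p below 0.1.

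The 6 ligands together made up 766 ± 33.6 CPM in parent and 933 ± 17.8 CPM in ADRr cells (SD, n = 3 each), 1.22 times as much. In FPKM the sums were 437 ± 16.0 and 496 ± 10.8, or 1.13 times as much. The share of CXCL1 in the FPKM sum was 51.8 ± 1.39% in parent and 30.5 ± 0.710% in ADRr cells, while that of CXCL8 was 40.7 ± 1.29% and 51.8 ± 0.264% and that of CXCL2 was 6.33 ± 0.223% and 16.1 ± 0.913%. In the CPM sum CXCL8 held the largest share in both groups, 53.9% in parent and 63.7% in ADRr cells. CXCL1 held 39.1% and 21.4% of that sum. The lower level of CXCL1 and the higher levels of CXCL2 and CXCL3 nearly balanced in CPM. Summed, these 3 genes were at 347, 360 and 350 CPM in parent replicates 1 to 3 and 348, 332 and 336 CPM in ADRr replicates 1 to 3, and the groups overlapped.

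**Figure D2:**
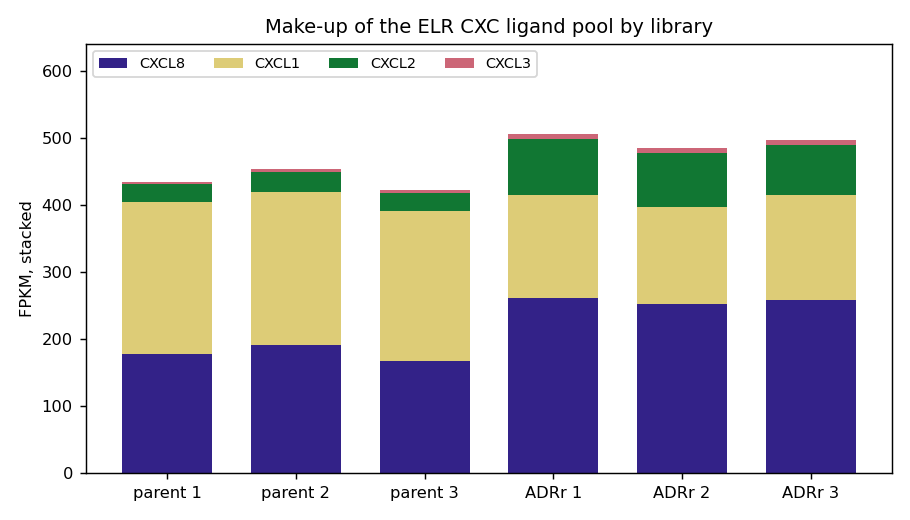
FPKM of CXCL8, CXCL1, CXCL2 and CXCL3 stacked for each of the 6 libraries (CXCL5 and CXCL6 are too low to draw). CXCL1 is the largest part in each parent library and CXCL8 in each ADRr library, and the CXCL2 part is larger in all 3 ADRr libraries.

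CXCL1, CXCL2 and CXCL3 are near-copies, so their reads can be hard to assign. Their coding sequences in GENCODE 29 were 90.7 to 94.4% identical. Of all 75-base windows of their transcripts, 0.245% in CXCL1, 7.07% in CXCL2 and 4.57% in CXCL3 also occurred in another gene of the trio, and CXCL8 had 0 such windows. How reads that fit several genes were counted is not given in the sources used here. CXCR1 and CXCR2 had coding sequences that were 82.2% identical and shared 1.99 and 2.09% of their windows with each other or with the pseudogene CXCR2P1, which had 0 counts.

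The messages of these ligands are known to be short-lived through AU-rich elements, repeats of the letters ATTTA in the 3′ untranslated region that recruit decay factors such as tristetraprolin. The longest such region of each gene in GENCODE 29, counted with the stop codon, held 10 copies of ATTTA in 724 bases for CXCL2, 7 in 676 bases for CXCL3, 9 in 1255 bases for CXCL8 and 5 in 709 bases for CXCL1. Per kilobase this was 13.8 in CXCL2, 10.4 in CXCL3, 7.17 in CXCL8 and 7.05 in CXCL1. A density at least as high was found in 0.145%, 0.442%, 1.83% and 1.97% of 17892 genes with such a region of 200 bases or more. By number of copies alone, without regard to length, 12.4%, 20.0%, 14.4% and 28.3% of 19900 genes held at least as many. CXCL5 had 5.51 and CXCL6 5.35 copies per kilobase, and of the receptors CXCR2 had 1.46 and CXCR1 had 0. The 30 bases with the most copies are given for the tested ligands, in transcript direction with ATTTA in capitals.
CXCL2: aagtcttctATTTATTTATTTATTTATTTA
CXCL8: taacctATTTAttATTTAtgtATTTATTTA
CXCL1: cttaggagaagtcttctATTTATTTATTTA
CXCL3: ttacgagggttctacttATTTAtgtATTTA

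Among the 26 genes listed for AU-rich mRNA decay and stability, all of them tested, 8 were called higher and 6 lower, with a median log2 fold change of -0.0049 against -0.0061 over all tested genes. The shares of 30.8% higher and 23.1% lower were near those of all genes. ZFP36, which encodes tristetraprolin, rose from 10.1 ± 1.22 to 22.1 ± 0.961 CPM (log2 fold change 1.14, SE 0.11, edgeR adjusted p = 4.4e-09), and its relative ZFP36L2 rose by 1.14. DUSP1, a phosphatase that turns off p38 MAP kinase, rose by 2.25 on the log2 scale. ZC3H12A, which encodes the RNase Regnase-1, fell from 95.1 ± 6.21 to 36.3 ± 2.91 CPM (log2 fold change -1.39, SE 0.073, edgeR adjusted p = 1.1e-13). ZC3H12B, a low-level relative of ZC3H12A, had a log2 fold change of -1.53 and was called lower, but not by limma-trend on log2(FPKM + 1) without a filter (adjusted p = 0.058).

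Signals known to switch on the ELR ligand genes were listed as 32 cytokines, receptors and adaptors. Of the 25 tested, 16 (64%) were called higher and 5 (20%) lower, beside 29.2% and 29.6% of all tested genes, and the median log2 fold change was 0.79 against -0.0061. With at least 10 counts required in every library, 14 were called higher and 5 lower. This list and the others were chosen with earlier results of these data known, so the shares only describe the listed genes. IL1A rose from 20.3 ± 3.90 to 760.1 ± 22.1 CPM and IL1B from 18.5 ± 2.75 to 252 ± 4.30 CPM, log2 fold changes of 5.23 and 3.78 (edgeR adjusted p = 2.5e-22 and 1.2e-20). These encode interleukin-1 alpha and beta, inducers of CXCL8 and CXCL1 in many cell types. TNF, the classical inducer, was counted 1, 10 and 14 times in parent and 2, 2 and 6 times in ADRr replicates 1 to 3 and was not tested. LTA, the lymphotoxin alpha gene, had 95 counts over the 3 ADRr libraries and 5 over the 3 parent libraries, a CPM ratio of 18.0 (exact binomial 95% interval 7.47 to 56.9, counting error only). TLR3, the receptor for double-stranded RNA, fell by 1.59 on the log2 scale, and IL17RC, a subunit of the interleukin-17 receptor, fell by 1.08.

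The 34 transcription regulators listed for these promoters had 33 tested genes, of which 14 (42.4%) were called higher, 6 (18.2%) lower and 13 neither, beside 29.2% higher and 29.6% lower over all tested genes. The median log2 fold change was 0.21. RELB, the NF-κB subunit of the alternative pathway, rose from 41.4 ± 4.80 to 131 ± 10.0 CPM (log2 fold change 1.65, SE 0.077, edgeR adjusted p = 1.4e-14). RELA, the main activating subunit, rose by 0.38, and NFKB1, which encodes p50, had a log2 fold change of 0.21 (adjusted p = 0.0044), under the fold change threshold. NFKBIA, which encodes the inhibitor IκBα, fell from 177 ± 7.52 to 103 ± 1.99 CPM (log2 fold change -0.79, SE 0.055, edgeR adjusted p = 1.8e-11), and NFKBIZ, a nuclear cofactor of NF-κB, fell by 0.32. Among C/EBP factors, CEBPG rose by 2.02 and CEBPB by 0.78, while CEBPD fell by 0.90. ATF3, a stress-induced factor, rose by 2.12.

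**Figure D3:**
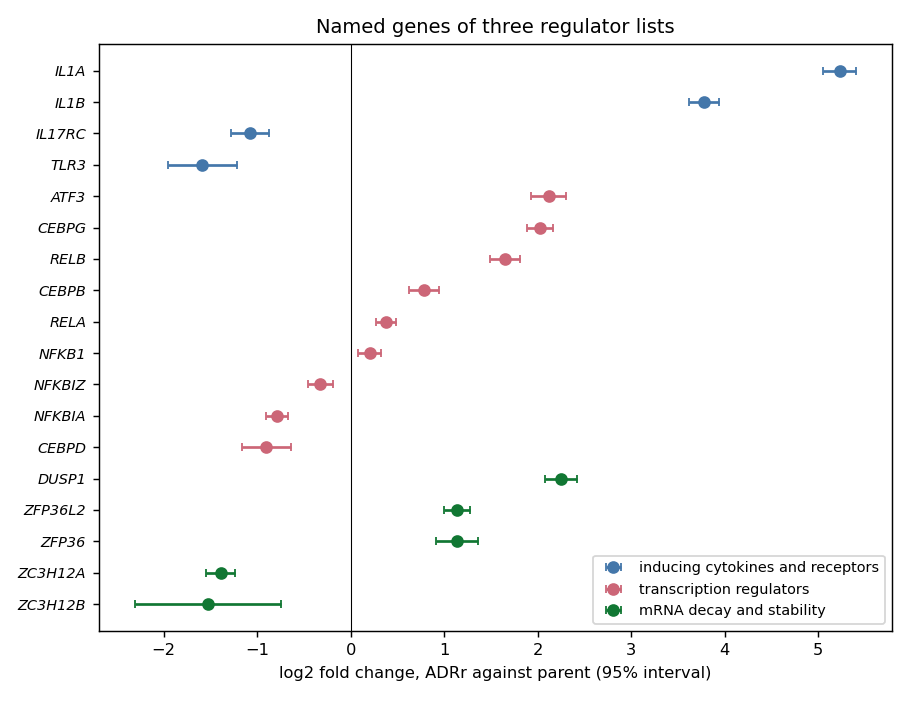
Log2 fold change (ADRr against parent) with its 95% confidence interval for the named inducers (blue), transcription regulators (red) and decay genes (green), each from 3 libraries per group. IL1A (5.23) and IL1B (3.78) lie farthest right. NFKBIA and ZC3H12A lie left of 0, and LTA, with few counts in parent cells, is not drawn.

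Downstream of CXCR1 and CXCR2, 22 of 31 listed signalling genes were tested, with 8 (36.4%) called higher and 3 (13.6%) lower, beside 29.2% and 29.6% of all tested genes. Their median log2 fold change was 0.074. ARRB2, which encodes the arrestin that uncouples and internalizes these receptors, rose from 14.7 ± 2.06 to 58.2 ± 1.34 CPM (log2 fold change 1.98, SE 0.091, edgeR adjusted p = 1.1e-14), the largest increase among the called genes of this list. GRK5, a receptor kinase, rose by 1.05 and GNG5, a G protein gamma subunit, by 0.66. GNAI2, the inhibitory alpha subunit through which chemokine receptors signal, fell from 329 ± 20.8 to 195 ± 2.21 CPM, a log2 fold change of -0.75 (edgeR adjusted p = 2.1e-11). PTK2, which encodes focal adhesion kinase, fell by 0.53.

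The other CXC ligands were listed as 11 genes. Of these, 3 were tested and all 3 were called higher, beside 29.2% of all tested genes. The other 8 were not tested, so the calls cover a small part of the list. CXCL11, a CXCR3 ligand without the ELR residues, was at 0.776 ± 0.0680 CPM in parent and 8.95 ± 1.16 CPM in ADRr cells. CXCL16, a membrane-bound ligand of CXCR6, rose from 13.7 ± 0.988 to 53.2 ± 0.649 CPM, a log2 fold change of 1.96 (SE 0.084, edgeR adjusted p = 3.8e-15). CXCL10, another CXCR3 ligand, was counted 7, 8 and 9 times in parent replicates 1 to 3 and 26, 27 and 41 times in ADRr replicates 1 to 3. It was called higher with a log2 fold change of 1.88 (SE 0.38), but its parent counts were all under 10. With at least 10 counts required in every library, CXCL10 was not tested and 2 of these ligands were called higher. PPBP, the remaining ELR ligand of the cluster and a platelet product, had 1 count in parent replicate 3 and 0 in the other libraries.

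The 6 ligand genes span 359 kb of chromosome 4. Within 1000000 bases of that span, 39 other genes are annotated, of which 21 had no count in any library and 6 were tested. AREG and EREG, which encode the epidermal growth factor receptor ligands amphiregulin and epiregulin, rose by 1.69 and 0.86 on the log2 scale (edgeR adjusted p = 1.0e-14 and 9.1e-09). BTC, the betacellulin gene, had a log2 fold change of 0.72 (adjusted p = 0.019), which was not called without parent replicate 1 (0.55, adjusted p = 0.096) or without ADRr replicate 2 (0.58, adjusted p = 0.096). By limma-trend on log2(FPKM + 1) without a filter, 2 neighbours were called higher in place of 3. On the other side of the cluster, COX18, a mitochondrial insertase gene, fell by 1.12 and ANKRD17 fell by 0.53. MTHFD2L, a mitochondrial folate enzyme gene beyond CXCL2, had a log2 fold change of -0.33 (adjusted p = 0.016). It was not called without ADRr replicate 1 (-0.30, adjusted p = 0.058), without ADRr replicate 2 (-0.28, adjusted p = 0.076) or by limma-trend on FPKM. Along the chromosome CXCL1, called lower, lay between CXCL8 and CXCL3, both called higher.

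**Figure D4:**
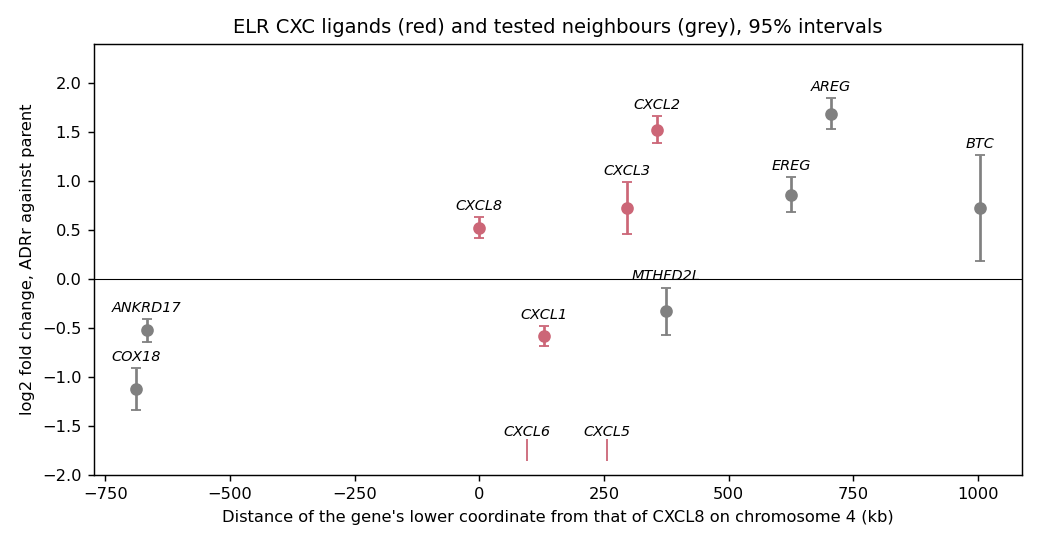
Log2 fold change (ADRr against parent) with its 95% confidence interval for the 4 tested ligands (red) and the 6 tested neighbours (grey), by distance in kb from CXCL8 on chromosome 4. CXCL5 and CXCL6, which were not tested, are marked by position only. CXCL1 lies below 0 between CXCL8 and CXCL3, and the neighbours AREG and EREG lie above 0.

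Of 9845 genes with a mean of at least 10 CPM outside the family, those with a pattern among the closest to that of CXCL8 over the 6 libraries, by the root mean square difference of centred log2 CPM, included TAX1BP1 (0.021), CCT8 (0.021), CTNNAL1 (0.022) and NCKAP1 (0.023). The log2 fold changes of these 4 genes ran from 0.49 in CTNNAL1 to 0.55 in CCT8, beside 0.52 in CXCL8.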

How the data were processed

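The authors selected polyadenylated RNA and, per the methods, sequenced CORALL libraries as paired ends. The submitters' processing notes list fastp, HISAT2 2.0.5, featureCounts 1.5.0-p3, DESeq2 1.20.0 and GRCh38. The strand setting is not given in the sources used here, and the sample records describe another amount of RNA than the methods do. The deposited whole-number counts per gene carry no normalization. The deposited FPKM values were counts divided by gene length and by 0.905 to 3.10% more reads than a library's total. All 58735 identifiers and lengths were the same as in GENCODE 29.

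Counts were scaled with TMM (factors 0.987 to 1.01), filtered with filterByExpr and tested with edgeR 4.0.16 in R 4.3.3 over 15242 genes, with Benjamini-Hochberg adjustment. CPM values use the TMM-scaled totals. Libraries within a group differed by more than sampling noise (chi-square per degree of freedom 2.52 to 7.71). The script was tested on simulated data. The alternatives were other size factors, library size alone, DESeq2 1.42.0, other filters, limma 3.58.1 on log2(FPKM + 1) or log2(FPKM + 0.1), a replicate block, each library left out, and other thresholds. The members and lists were chosen with earlier results of these data known. All 8 members were named, and per list the 3 largest increases and 2 largest decreases among called genes with at least 1 CPM in the higher group, plus 10 regulators and ligands fixed by name, and all tested neighbours. Some further genes, such as VIM, PGR, DCN, TNF, PPBP, ACKR1 and PTPRC, were named outside this rule. Protein sequences were not used here. Of the 5 genes most like CXCL8 in pattern, 1 is not reported here.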

Additional observations from a re-analysis of the deposited data

How the results depend on the processing

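The log2 fold changes of CXCL1, CXCL2, CXCL3 and CXCL8 kept their direction and their call under all 15 alternatives run for each. They lay between -0.60 and -0.55 for CXCL1, 1.49 and 1.57 for CXCL2, 0.58 and 0.84 for CXCL3, and 0.48 and 0.57 for CXCL8. The largest adjusted p of any alternative was 0.0100, for CXCL3 by limma-trend on log2(FPKM + 1) without a filter. CXCL3 moved most when parent replicate 1 (0.58) or parent replicate 2 (0.84) was left out.

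Most counts of calls depended on the fold change threshold. At an absolute log2 fold change threshold of 1.2, 1 ligand gene (CXCL2) was called higher and 0 lower, beside 1114 and 972 of all genes. The counts, higher and lower, were then 10 and 1 for inducing cytokines and receptors, 4 and 0 for transcription regulators, 1 and 2 for mRNA decay, 1 and 0 for receptor signalling and 1 and 0 for cluster neighbours, while the other CXC ligands stayed at 3 higher and the other CXC receptors at 2 lower. With the adjusted p alone, 10 mRNA decay genes and 7 receptor signalling genes were called lower. Of the other CXC receptors, 1 was called lower with at least 10 counts in every library and by limma-trend on FPKM with either pseudocount, because CXCR4 was then not tested. Summed as FPKM in place of CPM, the 6 ligands were at 437 in parent and 496 in ADRr cells, on another scale. A log2 fold change counted as unchanged when it kept its direction and call, a count of calls when it stayed within 1.5 times the reported count, and a level when it stayed within 1 SD. By these limits 353 of 374 comparisons with an alternative were unchanged and 21 moved. None of the 21 came from leaving out a library. For the summed level, leaving out 1 of 3 libraries cannot move the mean by 1 SD, so those comparisons could only come out unchanged.

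Replicate numbers are shared by the groups, but the deviations of same-numbered libraries from their group means correlated over genes with r = 0.0074, -0.021 and -0.046, all under 0.1, so no pairing was assumed. With the replicate number as a block, the log2 fold change was -0.59 for CXCL1, 1.53 for CXCL2, 0.73 for CXCL3 and 0.53 for CXCL8, and 4406 genes were called higher and 4464 lower. Not every library correlated best with its own number.

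At this depth CXCL5 could not be compared, and for CXCL6, CXCR1 and CXCR2 a level below 0.163 to 0.189 CPM cannot be told from none. No batch is named in the labels, so one that followed the groups could not be told apart from them.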
